A study of Tachysurus vachellii with 12 samples.

Results

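The small RNA of liver at normal oxygen was described in 3 control pools of juvenile Tachysurus vachellii. This bagrid catfish of East Asia appears as Pelteobagrus vachelli in the title of the series. The control fish were kept at 6.8 mg/L oxygen, and livers were dissected as soon as the fish left their aquaria. Pools a, b and c each combined 5 livers, so a value is an average over 5 fish, and fish within a pool cannot be told apart. The 3 libraries were chosen by their control label from 12 in the series, and the hypoxia and mRNA libraries were not used. No strain, sex, genotype or added agent is given for these fish, and the labels tie no letter to an aquarium or to a sequencing run. The 3 libraries are 1 group, so no comparison between conditions was made.

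MicroRNAs (miRNAs) are short RNAs cut from the stem of a hairpin precursor, 1 from its 5p arm and 1 from its 3p arm. One arm is usually loaded into an Argonaute protein, which represses messenger RNAs that pair with the seed, the bases near the 5′ end of the miRNA. Sequences with a common seed form a family and share much of their predicted targets. In vertebrate liver the hepatocyte is known for miR-122, which supports the lipid metabolism and identity of this cell.

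The 10 most abundant mature sequences carry 84.4% ± 4.05 (SD, n = 3 pools) of all counts and are printed from the deposited table, 5′ to 3′, written with T for U. Capitals mark the seed, bases 2 to 8.
miR-122-5p: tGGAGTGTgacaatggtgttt
miR-100-5p: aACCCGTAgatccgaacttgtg
miR-199a-5p: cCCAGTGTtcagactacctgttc
let-7a-5p: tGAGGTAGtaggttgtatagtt
miR-26a-5p: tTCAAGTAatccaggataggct
miR-146a: tGAGAACTgaattccatagatgg
miR-21: tAGCTTATcagactggtgttggc
miR-199a-3p: aCAGTAGTccgcacattggtt
miR-30a-5p: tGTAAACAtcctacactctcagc
miR-126-3p: tCGTACCGtgagtaataatgca

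Each sequence here is 1 entry of the table, named in short form without the species code of the animal whose known miRNA it matched. The libraries held 4510789 counts in pool a, 7049929 in pool b and 4664711 in pool c. Of 545 mature sequences, 324 had counts in all 3 pools, 66 in 2 pools, 98 in 1 pool and 57 in no control pool. Pool a held 426 sequences with counts, pool b 404 and pool c 372, an order that does not follow their depth. A total of 3 counts, the limit that a count of 0 allows, corresponds to 0.665 counts per 1000000 (CPM) in pool a, 0.426 in pool b and 0.643 in pool c. These limits use the raw totals, while the CPM levels given below are scaled further. Such limits and the 95% exact intervals given for shares cover counting error only, since these reads carry no molecular identifiers.

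miR-122-5p alone held 42.7% of the counts of pool a, 52.7% of pool b and 54.3% of pool c, a mean of 49.9% ± 6.31 (SD, n = 3). Its 95% exact (Clopper-Pearson) interval ran from 42.6% to 42.7% in pool a and from 54.3% to 54.4% in pool c, so the pools differed far beyond counting error. Next came miR-100-5p, whose hairpin is known in vertebrates to lie beside a let-7 hairpin, with 7.56% in pool a, 9.13% in pool b and 8.81% in pool c. Both held the first and the second rank in all 3 pools.

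miR-199a-5p, from a hairpin known for stromal and stellate cells, held 4.52%, 5.56% and 6.72% of the counts in pools a, b and c. let-7a-5p, a brake on growth and cell renewal in animals, held 4.26%, 5.26% and 4.00%. These sequences kept the order miR-122-5p, miR-100-5p, miR-199a-5p and let-7a-5p in every pool.

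Below them the order was not fixed. miR-26a-5p, a brake on cell division in mammalian liver, held 5.46% in pool a, 2.996% in pool b and 2.86% in pool c, and it stood above miR-199a-5p in pool a. miR-146a, a feedback inhibitor of innate immune signalling in mammals, held 5.03% in pool a, 3.11% in pool b and 2.47% in pool c. miR-21, a sequence associated in mammals with injury and fibrosis, held nearly the same share in each pool, 3.47% in a, 3.36% in b and 3.37% in c. As a result miR-146a stood above miR-21 in pool a and below it in pools b and c. The steady share of miR-21 did not hold on the TMM scale used for spread below. There the coefficient of variation over pools was 23.2% for miR-21, against 10.2% for miR-26a-5p and 10.5% for miR-146a.

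The 10 leading sequences were completed by miR-199a-3p, the other arm of the miR-199a hairpin, miR-30a-5p and miR-126-3p, the endothelial miRNA of vertebrates. miR-199a-3p held 2.88%, 1.96% and 1.39% of the counts in pools a, b and c. By share the pool with the most 3p had the least 5p. By TMM-scaled CPM the 5p arm was still lowest in pool a. The 3p arm was then highest in pool b, at 21767, against 21269 in pool a and 16976 in pool c. miR-30a-5p held 1.90%, 1.26% and 1.60%. miR-126-3p held 1.92%, 1.10% and 1.42%. The same 10 sequences filled the first 10 ranks of every pool, in changing order.

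Ranks 11 to 20 went to miR-22a-3p, miR-148, miR-451, miR-125a-5p, let-7b-5p, miR-192-5p, miR-25, let-7j, miR-92a-3p and miR-722. Their mean shares ran from 1.09% ± 0.178 for miR-22a-3p to 0.476% ± 0.315 for miR-722 (SD, n = 3). miR-148, a hepatocyte sequence in mammals, held 1.64% of pool a, 0.590% of pool b and 0.536% of pool c. miR-192-5p, an epithelial and liver sequence, held 1.06%, 0.460% and 0.425%. Both were clearly highest in pool a. miR-722, known from fish, held 0.839% of pool a, 0.324% of pool b and 0.266% of pool c, and ranked 15 in pool a but 23 and 27 in the others. The other 19 of the 20 sequences were among the first 20 in every pool. Of the 19 neighbouring pairs in this order, 5 had the same order in all 3 pools, so most adjacent ranks did not differ beyond the spread between pools.

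**Figure D1:**
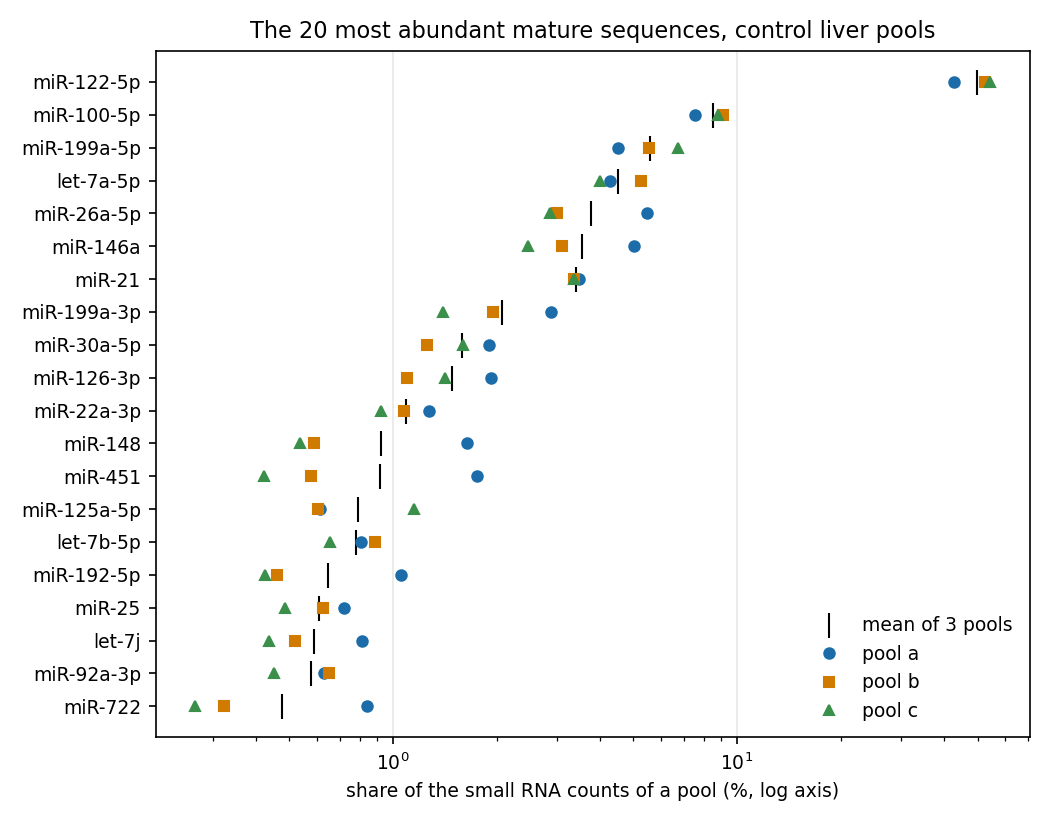
Share of the counts of a pool (%, log axis) for the 20 most abundant mature sequences, with 1 point for each control pool and a bar at the mean of 3 pools. miR-122-5p lies at 42.7% to 54.3%. The points of pool a lie right of the others for most sequences. The exceptions are miR-122-5p, miR-100-5p, miR-199a-5p, let-7a-5p, miR-125a-5p, let-7b-5p and miR-92a-3p.

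The counts were concentrated in few sequences. In pool a 2 sequences held over 50% of the counts, and in pools b and c miR-122-5p did so alone. To reach 90% took 21 sequences in pool a, 15 in pool b and 14 in pool c, and to reach 99% took 78, 62 and 60. The 20 leading sequences held 91.9% ± 1.76 and the 50 leading ones 98.1% ± 0.621 (SD, n = 3). Pool a was thus spread over more sequences than pools b and c, at the smallest total count.

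Sequences were then joined by identical seed, which gave 433 families, of which 390 had counts in a control pool and 67 held more than 1 sequence. The 10 largest families held 86.5% of the counts on average, and they were led by the same 10 sequences named above. The miR-122 family (seed GGAGTGT) held 49.9% ± 6.32 of the counts, of which miR-122-5p made up 99.9%. The miR-100 and miR-99 family (ACCCGTA) held 8.73% ± 0.865, with miR-100-5p at 97.3% of it. miR-99-5p, which held 0.237% of the counts, differs from miR-100-5p by A16T alone, counted from the 5′ end with the miR-100-5p base first.
miR-100-5p: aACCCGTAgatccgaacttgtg
miR-99-5p: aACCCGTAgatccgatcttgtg

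The let-7 family (GAGGTAG) held 5.97%, 6.77% and 5.15% of the counts in pools a, b and c, divided over 10 sequences. let-7a-5p made up 75.6% of the family. let-7b-5p followed with a mean of 0.783% ± 0.118 of all counts and let-7j with 0.590% ± 0.197 (SD, n = 3). let-7b-5p differs from let-7a-5p by A17G and A19G, and let-7j differs from it by A10T, G12T and T18C, all outside the seed. Reads that match several let-7 sequences could be split between them in the deposited values, so the share of a single sister is less certain than that of the family. With every row of the table counted, repeats included, the family held 9.35% and passed the miR-100 and miR-99 family, then at 7.80%. That setting counts a sequence listed under several names again for each name.
let-7a-5p: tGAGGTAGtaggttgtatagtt
let-7b-5p: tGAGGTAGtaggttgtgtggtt
let-7j: tGAGGTAGttgtttgtacagtt

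The remaining large families rested mainly on 1 sequence each. The miR-146 family (GAGAACT) held 3.59% ± 1.34 and the miR-21 family (AGCTTAT) 3.40% ± 0.0628 of the counts, with 98.4% of the miR-146 family in miR-146a and nearly all of the miR-21 family in miR-21. The miR-199a-5p (CCAGTGT), miR-26a-5p (TCAAGTA), miR-199a-3p (CAGTAGT) and miR-126-3p (CGTACCG) families held 5.601%, 3.77%, 2.08% and 1.48%, all counted on the sequence printed above. With every row of the table counted, the miR-26a-5p family held 6.70%. In the miR-30 family (GTAAACA), which held 1.96% ± 0.511, miR-30a-5p made up 80.9% and miR-30e-5p the rest.

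In 2 families of growth-linked miRNAs the leading sequence held under 50% of the family. The miR-25 and miR-92 family (ATTGCAC), at rank 11, held 1.23% ± 0.228 of the counts in 10 sequences, with miR-25 at 49.9% of the family and miR-92a-3p close to it. miR-92a-3p differs from miR-25 by C1T, T14C, T18C and A22T. The family of miR-17-5p, miR-93 and miR-20a-5p (AAAGTGC) held 0.870% ± 0.236, and its leader made up 36.6%.
miR-25: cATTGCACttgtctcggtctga
miR-92a-3p: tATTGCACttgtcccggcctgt

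What the abundant sequences share beyond their seeds was read from their letters. Sequences of 21 to 23 bases made up 76.1% of the entries and 99.3% ± 0.343 of the counts (SD, n = 3). T stood first in 46.4% of the entries and in 77.0% ± 0.785 of the counts, and without the miR-122 sequences in 53.8% of the counts. A U at this place is a known preference of Argonaute proteins. GC content averaged 46.9% over entries and 44.0% weighted by counts. Only 39.9% of the counts belonged to entries that matched a known miRNA in full, while 56.3% belonged to entries with a shifted end and 3.74% to entries with a changed base. miR-122-5p, printed 1 base shorter at its 3′ end than the salmon sequence it matched, belonged to the entries with a shifted end, which held 12.7% of the counts once miR-122 was left out.

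Arms were compared within each pool as the log2 ratio of 5p to 3p counts, with 1 added to each, so depth cancels out. Both arms were listed for 95 hairpins, and 72 of them had a mean of at least 10 counts over both arms. By limma's moderated test of the mean ratio against 0 (two-sided, Benjamini-Hochberg adjusted p under 0.05, same side in all 3 pools), 5p counts were higher for 35 hairpins, which is 48.6% of those tested. For 32 hairpins, 44.4%, 3p counts were higher, and 5 were not called. By number of hairpins the higher arm was thus about as often 5p as 3p. By counts the 5p arms held 90.9% of the counts of these hairpins, and 78.6% without miR-122. The 2 arms differed more than 10-fold in 51 hairpins and more than 100-fold in 24. Arms were paired by name, so an arm listed under another letter was left out of a ratio. miR-194, at a mean log2 ratio of 12.94, was paired without miR-194a-3p, whose seed family held a mean of 0.00275% of the counts. In 4 hairpins (miR-200a, miR-124, miR-193b and miR-193a) the 5p arm was at 0 in all 3 pools, so their fitted ratios depend on the 1 added count. Others over 100-fold, among them miR-194, miR-1285, miR-429 and miR-458, had at most 2 counts of the minor arm in any pool. Their ratios depend on the added count too. For 16 hairpins a sequence without an arm label was given an arm from the labelled ones. It took the same arm where it shared a seed or at least 12 bases, and otherwise the opposite arm.

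Among the 12 hairpins with the most counts, 9 had more 5p and 3 more 3p. Hairpin miR-122 gave 1925930, 3717000 and 2536470 counts of 5p, against 6730, 3214 and 2186 of 3p, in pools a, b and c. Its log2 ratio was 8.16, 10.18 and 10.18, with a mean of 9.51 (SE 0.83, limma adjusted p = 1.1e-21). The 3p arm thus took a larger part of this hairpin in pool a than in the others, at a counting SD of 0.03 on that scale. Its main 3p sequence is aACGCCATtatcacactaaat. The longer miR-122 sequence without an arm label was counted as 5p.

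miR-100 stood at a mean log2 ratio of 14.16, let-7a at 12.60 and miR-125a at 10.55, and miR-26a ranged from 11.80 to 12.26 over the pools, all with 5p higher. The 3p arms of these 4 hairpins were counted 17 to 68 times in a pool, so their ratios depend on few counts. miR-30a stood at 8.62, let-7b at 5.01 and miR-451 at 4.81. miR-451 is known in vertebrates for being cut by Argonaute itself and not by Dicer, and its main sequence, listed without an arm, was taken as 5p here. On the other side were miR-126 at -4.29, miR-22a at -4.68 and miR-25 at -6.98, in which 3p was the higher arm in every pool. Adjusted p in the limma test was at most 5.4e-22 for these 10 hairpins.

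Among these 12 hairpins, the arms of miR-199a lay closest together. It gave 204050, 392229 and 313826 counts of 5p, against 129942, 138016 and 65009 of 3p, in pools a, b and c. The 5p arm was higher in each pool, with log2 ratios of 0.65, 1.51 and 2.27 and a mean of 1.48 (SE 0.54, limma adjusted p = 0.0072). The call was lost without pool b (1.46) and without pool c (1.08), and it was also lost when tested against a ratio of 2-fold. Both arms have their own seed and are printed among the 10 leading sequences.

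miR-30e was the hairpin above 1000 CPM with the ratio nearest 1. Its 5p counts were 27460.0, 17382.5 and 12526.5, against 10341.2, 15330.7 and 7823.5 for 3p, in pools a, b and c. The mean log2 ratio was 0.76 (SE 0.31, limma adjusted p = 0.019), with 1.41, 0.18 and 0.68 in the pools, and the call was lost without pool a (0.43), without pool c (0.80) and against a 2-fold ratio. miR-222a (-2.11), miR-145 (2.34) and miR-2188 (2.35) came next. miR-30a, with the same 5p seed, had a far more unequal pair of arms, as given above.
miR-30e-5p: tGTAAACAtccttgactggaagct
miR-30e-3p: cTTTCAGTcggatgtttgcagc

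The 5 hairpins without a call were miR-130a, miR-144, miR-29b, miR-210 and miR-135b, with mean log2 ratios of -0.54, -0.01, 0.07, -0.44 and 0.25. For miR-210, the miRNA known for its induction by hypoxia-inducible factor, the log2 ratio was -0.52 in pool a, -0.62 in pool b and -0.17 in pool c. The 3p arm was thus above the 5p arm in all 3 pools, and the limma adjusted p was 0.32. miR-144 lay on different sides, at -0.83, -0.04 and 0.85 in pools a, b and c. A p above the threshold does not show that the arms were equal.

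**Figure D2:**
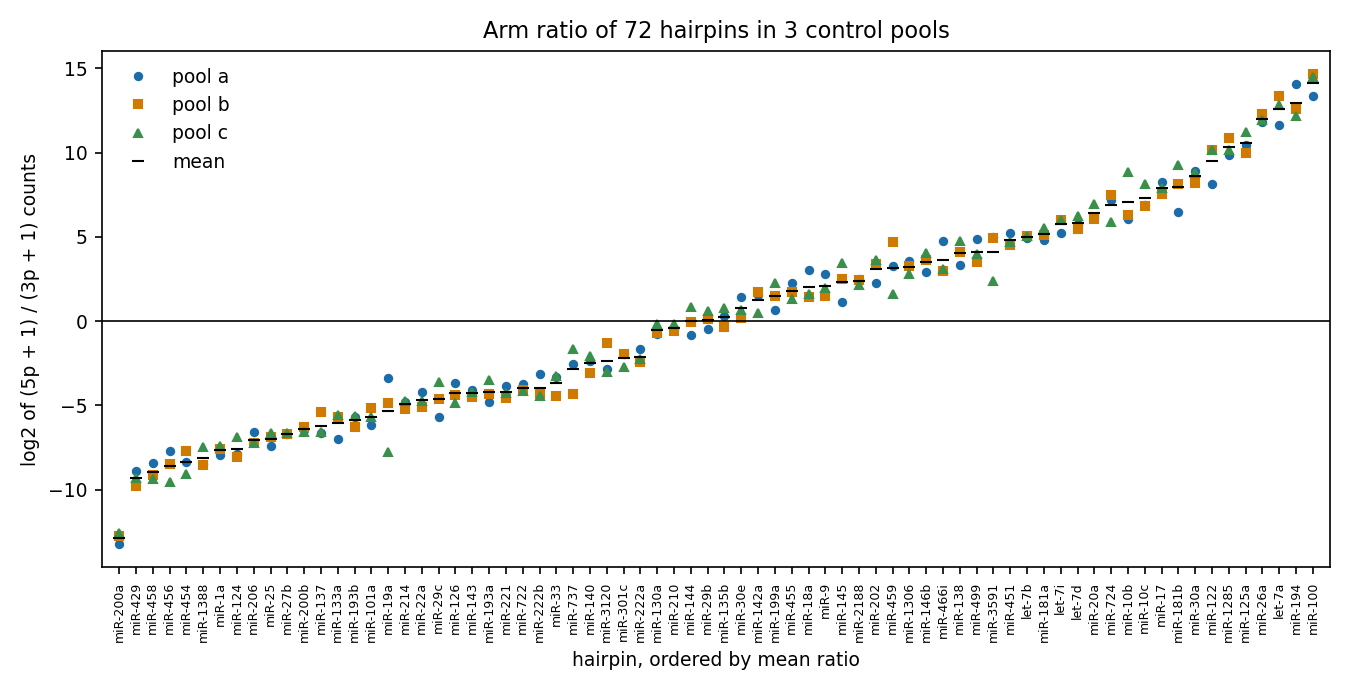
Log2 ratio of 5p to 3p counts, with 1 added to each, for the 72 tested hairpins ordered by their mean, with 1 point for each control pool and a dash at the mean. Ratios run from -12.85 for miR-200a, whose 5p arm was at 0, to 14.16 for miR-100, and the points of the pools lie widest apart for miR-19a.

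The spread of the ratio over pools exceeded the SD from counting alone in 48 of the 72 tested hairpins, with a median SD of the log2 ratio of 0.59, against a median counting SD of 0.24. In the 41 hairpins with at least 10 counts of each arm in each pool it did so in 39, with medians of 0.49 and 0.09. Among the hairpins with a mean of at least 100 counts, miR-19a had the widest range. Its 5p to 3p log2 ratio was -3.38 in pool a, -4.88 in pool b and -7.76 in pool c. miR-145, with 1.10, 2.49 and 3.43, and miR-181b, with 6.49, 8.12 and 9.27, also had their lowest and highest ratios in pools a and c. In the same 41 hairpins the median share of the minor arm was 6.48% in pool a, 4.11% in pool b and 4.99% in pool c. The minor arm had its highest share in pool a for 18 of these, in pool b for 11 and in pool c for 12.

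Spread between the pools was measured as the coefficient of variation (CV, SD over mean of 3 pools) of CPM scaled with TMM, a factor that sets the bulk of sequences equal. The factors were 1.35 for pool a, 0.899 for pool b and 0.821 for pool c, and pool a, with the largest factor, had the lowest share of miR-122-5p. On this scale miR-122-5p itself was 315045, 585812 and 661764 CPM in pools a, b and c. For the 104 sequences with a mean of at least 100 CPM the median CV was 25.1%, against 1.69% from counting alone, and 102 of them lay above the counting value. Only 16 exceeded 50%. With libraries scaled by their raw totals 29 did, and without pool c 8, without pool a 9 and without pool b 26. Each of these counts was taken over the sequences with a mean of at least 100 CPM in that setting. The count thus depended on the scaling and on the pools used.

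Over these sequences the median absolute log2 difference was 0.27 between pools b and c, 0.53 between a and b and 0.54 between a and c. Pearson's r of log2 CPM across the same 104 sequences, which are not independent replicates, was 0.968, 0.971 and 0.923 for the same pairs, so the measures gave different closest pairs. Of the 15 sequences with the largest CV, 7 were highest in pool a and lowest in pool c, and the other 8 were highest in pool c and lowest in pool a. None had its highest or lowest value in pool b. The 3 pools of this group have no groups to compare, so this is a description with no test.

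By TMM-scaled CV miR-19a-3p varied most. By raw totals its CV was 108.9%, below 115.0% for miR-217 and 111.1% for miR-216b. Those 2 also had larger ratios of highest over lowest pool, given below. miR-19a-3p gave 108.8, 125.6 and 961.9 CPM in pools a, b and c (CV 122.3%, highest over lowest pool 8.84). miR-19b-3p, which has the same seed, gave 807, 918 and 3688 CPM (CV 90.4%). Both were high in pool c and alike in the other two: without pool c their CVs were 10.1% and 9.11%. Both belong to the miR-17 to miR-92a cluster, the growth-linked cluster that vertebrates transcribe as 1 precursor RNA. The rest of that cluster, looked at after these values were seen, did not stand out in pool c. miR-17-5p gave 3447, 2878 and 2810 CPM in pools a, b and c (CV 11.5%). miR-20a-5p gave 2865, 2187 and 2749 CPM (CV 13.9%), and miR-92a-3p gave 4644, 7246 and 5512 CPM (CV 22.8%). miR-18a was highest in pool a, with 114, 64.3 and 49.6 CPM. The 5p arm of miR-19a, at 10.3, 4.10 and 4.18 CPM, was not high in pool c either.
miR-19a-3p: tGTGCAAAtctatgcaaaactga
miR-19b-3p: tGTGCAAAtccatgcaaaactg
miR-17-5p: cAAAGTGCttacagtgcaggtag
miR-20a-5p: tAAAGTGCttatagtgcaggtag

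miR-145-5p, a miRNA of smooth muscle, was also highest in pool c, but pools a and b were not alike. It gave 821, 1650 and 4477 CPM in pools a, b and c (CV 82.8%, and 47.5% without pool c). miR-143, which vertebrates transcribe together with it, gave 3402, 3334 and 3145 CPM and was among the steadiest sequences (CV 4.05%). miR-145-3p, with 382, 293 and 415 CPM, did not follow its 5p arm.
miR-145-5p: gTCCAGTTttcccaggaatccc
miR-143: tGAGATGAagcactgtagcac

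**Figure D3:**
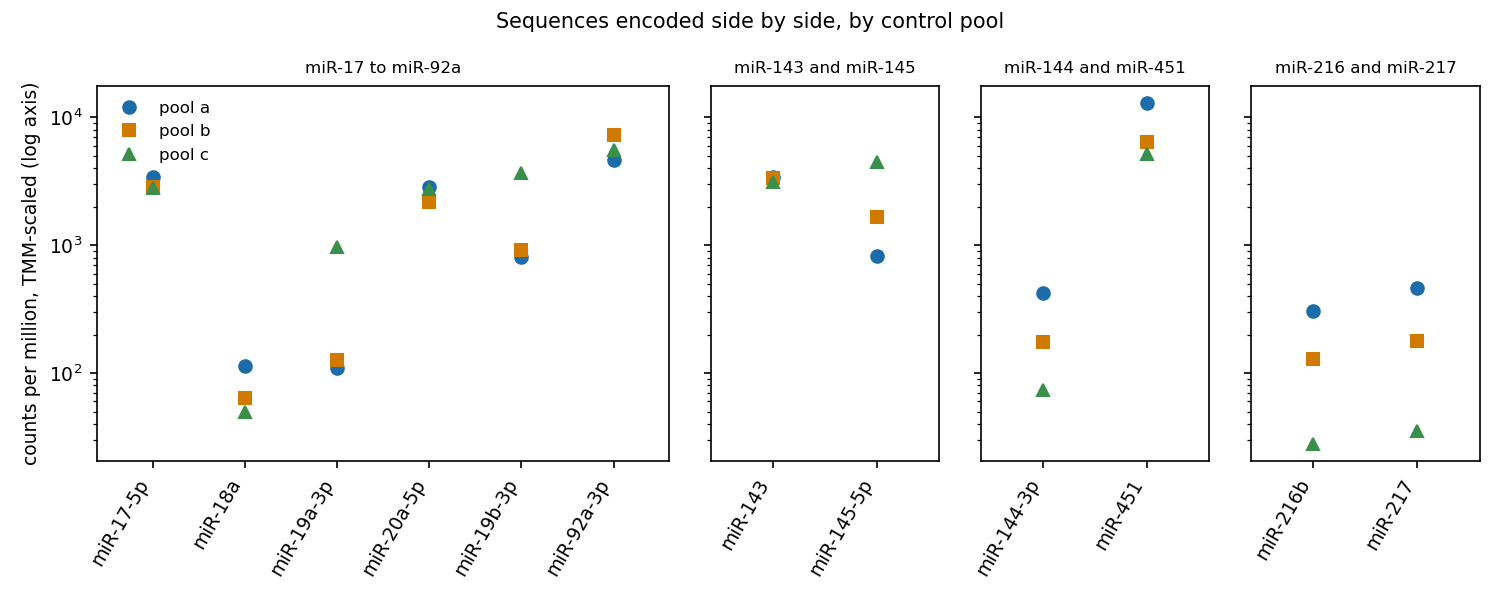
TMM-scaled CPM (log axis) of sequences that vertebrates are known to encode side by side, with 1 point for each control pool. miR-19a-3p, miR-19b-3p and miR-145-5p lie highest in pool c while miR-17-5p, miR-20a-5p and miR-143 lie close together, and miR-216b and miR-217 are both highest in pool a and lowest in pool c.

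Other sequences high in pool c belonged to the miR-10 and miR-125 families. miR-125a-5p gave 4527, 6747 and 14062 CPM in pools a, b and c (CV 59.1%, and 27.8% without pool c). A second sequence named miR-125a-5p gave 33.2, 73.2 and 202 CPM (CV 85.9%). miR-10c gave 461.9, 529 and 1193 CPM and miR-10b-5p gave 87.7, 99.04 and 244 CPM, with CVs of 55.5% and 60.6%, which were 9.63% and 8.56% without pool c. A miR-122 sequence 3 bases longer at its 3′ end, tGGAGTGTgacaatggtgtttgta, gave 193, 411 and 603 CPM (CV 51.0%, 31.2% by raw totals and 26.9% without pool a). The leading miR-122-5p sequence lay in the same order, with a CV of 35.0%, or 12.6% by raw totals.

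Among the sequences high in pool a were miR-217 and miR-216b, which are known from exocrine pancreas. miR-217 gave 459, 180 and 35.0 CPM in pools a, b and c (CV 96.02%). miR-216b gave 308, 129 and 27.9 CPM (CV 91.5%), and their CVs were 61.9% and 57.9% without pool c. Pool a thus exceeded pool c by 13.1 times for miR-217 and 11.04 times for miR-216b. miR-375, known from pancreatic islets, gave 74.3, 103.1 and 87.7 CPM and did not follow them on this scale. By share it fell in the same order, but less steeply, at 0.0101%, 0.00928% and 0.00720% in pools a, b and c.
miR-217: tACTGCATcaggaactgattgga
miR-216b: tAATCTCTgcaggcaactgtga

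The erythroid sequences miR-451 and miR-144-3p, which vertebrates encode as neighbours, were also highest in pool a. miR-451 gave 12951, 6410 and 5136 CPM in pools a, b and c (CV 51.4%, 79.4% by raw totals and 15.6% without pool a). miR-144-3p gave 419, 175 and 74.2 CPM (CV 79.7%). miR-722-5p, the minor arm of a fish hairpin, gave 459, 209 and 185 CPM (CV 53.3%, 81.5% by raw totals and 8.34% without pool a).
miR-451: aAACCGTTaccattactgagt
miR-144-3p: cTACAGTAtagatgatgtac

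The last sequences of this kind were miR-7550, with 388, 200 and 125 CPM in pools a, b and c, and miR-7977, with 295, 160 and 95.1 CPM. Their CVs were 57.0% and 55.7%, and 32.8% and 35.8% without pool a. Both are 18 bases long and end in CCA, the letters found at the 3′ end of mature transfer RNAs. Of all 545 sequences 8 are of that kind, and they held 0.238% of the counts of pool a, 0.0850% of pool b and 0.0577% of pool c. They made up nearly all counts of 18-base sequences, which were 0.239%, 0.0855% and 0.0579%. The capitals below mark the CCA end. Whether these reads come from transfer RNAs was not tested.
miR-2478: atcccacttctgacaCCA
miR-7550: atccggctcgaaggaCCA
miR-1260: atcccaccgctgccaCCA
miR-7977: ttcccggccaacgcaCCA

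The steadiest of the 104 sequences was miR-103, a miRNA linked in mammals to insulin sensitivity, with 1445, 1423 and 1462 CPM in pools a, b and c (CV 1.34%). miR-1285-5p (CV 2.13%), miR-458-3p (2.68%), miR-143 (4.05%), miR-130a-5p (4.07%), let-7j (6.12%), miR-27a-3p (6.58%) and miR-222a-5p (7.12%) followed. With every row of the table counted, the CVs of miR-103, miR-1285-5p and miR-143 were 3.20%, 4.93% and 6.61%. These values hold for TMM scaling. By raw totals the CVs of the same 8 sequences ran from 26.4% for miR-458-3p to 33.5% for let-7j, with pool a highest for each.

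**Figure D4:**
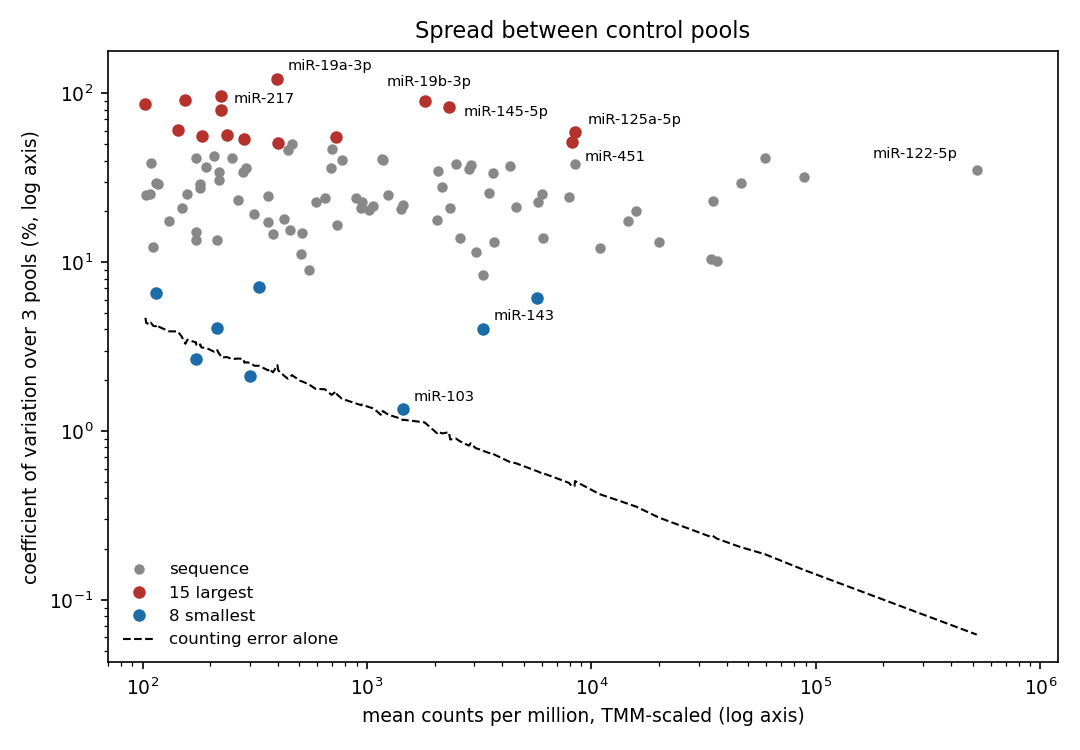
Coefficient of variation over the 3 control pools (%, log axis) against mean TMM-scaled CPM (log axis) for 104 sequences, with the value expected from counting error alone as a dashed line. The 15 largest lie between 51.0% and 122.3%, and miR-103 at 1.34% lies near the counting line.

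The tissue label was set against lists of miRNAs known for a cell type, several of which other cells express too. Hepatocyte miRNAs, namely miR-122, miR-192, miR-194, miR-148, miR-101, miR-21 and miR-22, summed to 51.3%, 58.7% and 60.1% of the counts of pools a, b and c, and all 7 had counts. Without miR-122 the list summed to 8.47%, 5.95% and 5.67%, so by share the lower sum in pool a was that of miR-122. By TMM-scaled CPM the list without miR-122 was still lowest in pool a, at 62533, against 66141 in pool b and 69044 in pool c. Its next members were miR-21 and miR-22, which are broadly expressed, and miR-148. By share and by TMM-scaled CPM, miR-148, miR-192, miR-194 and miR-101 were each highest in pool a. The other members went the other way by CPM. miR-21 gave 25731, 37451 and 41082 CPM and miR-22 gave 9916, 12332 and 11625 CPM in pools a, b and c. Both were lowest in pool a, as was miR-122. Since these are bulk samples, fewer cells of a type and less RNA per cell cannot be told apart.

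Stromal miRNAs summed to 8.26%, 8.17% and 8.94% in pools a, b and c, most of it the arms of miR-199a. White cell miRNAs summed to 5.30%, 3.30% and 2.66%, nearly all miR-146a, which other cells express too. miR-142 and miR-223, which define white cells more closely, gave 364, 212 and 243 CPM and 210, 188 and 245 CPM. The lymphocyte miRNA miR-150 gave 802, 1185 and 1216 CPM and miR-155 gave 10.3, 21.3 and 23.8 CPM, both lowest in pool a. By share miR-155 was still lowest in pool a, but miR-150 was highest there, at 0.109%, 0.107% and 0.0998% in pools a, b and c. By share miR-223 was also highest in pool a. The endothelial miR-126 gave 15316, 12808 and 17896 CPM.

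Red cell miRNAs summed to 1.90% of pool a, 0.636% of pool b and 0.458% of pool c, nearly all of it miR-451. miR-144 gave 656, 346 and 208 CPM in pools a, b and c, in the same order as miR-451. miR-486, also a red cell member, gave 2.62, 5.76 and 6.40 CPM and did not move with miR-451. Pancreas miRNAs summed to 0.115%, 0.0376% and 0.0124%. Striated muscle miRNAs summed to 0.0306%, 0.00745% and 0.0138%, with miR-1 at 101.3, 30.8 and 88.4 CPM, miR-133 at 65.3, 21.8 and 33.3 CPM and miR-206 at 47.6, 23.9 and 40.0 CPM. The red cell, pancreas and muscle lists were highest in pool a by share and by TMM-scaled CPM, and so was the white cell list through miR-146a. Pool a also had the lowest share of miR-122-5p, and the part of these lists in its other differences was not tested.

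Epithelial miRNAs summed to 0.363%, 0.175% and 0.233%, most of it miR-200, at 2172, 1641 and 2464 CPM, while miR-141 was not among the entries analysed. miR-203, a skin and lining epithelium miRNA, gave 166, 29.2 and 57.5 CPM. Neural miRNAs summed to 0.519%, 0.517% and 0.363%, and miR-128 made up nearly all of it. miR-9 and miR-124, which define neurons, gave 12.8, 6.31 and 17.5 CPM and 39.4, 42.0 and 30.0 CPM. The sensory cluster of miR-183, miR-96 and miR-182 held under 0.001% in each pool.

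**Figure D5:**
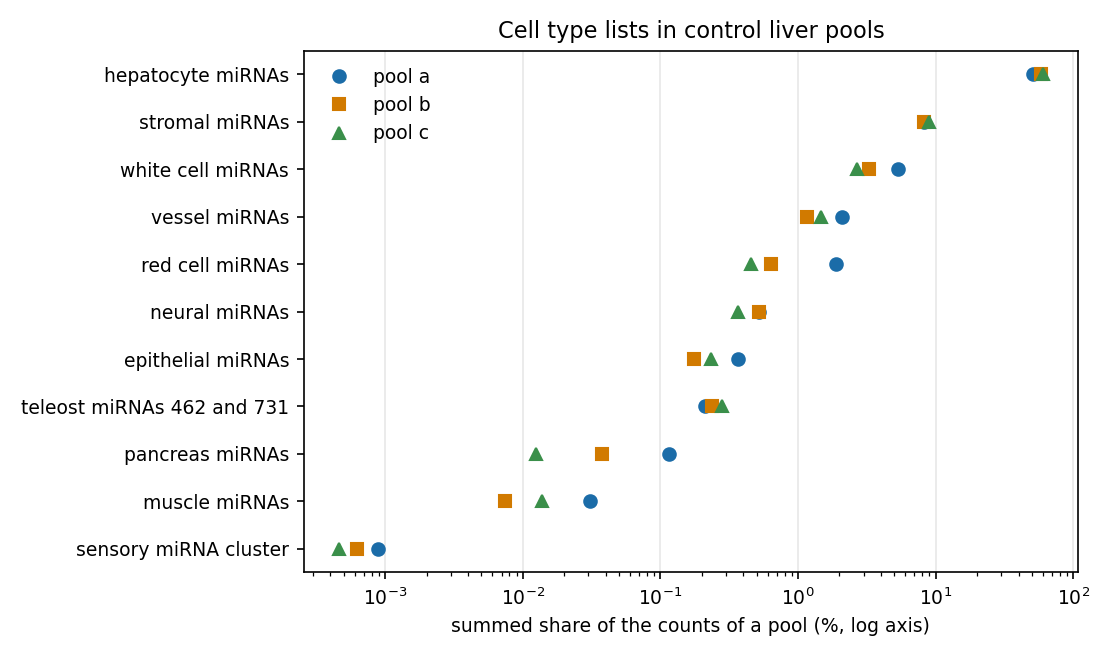
Summed share of the counts of a pool (%, log axis) for 11 lists of miRNAs known from a cell type or from fish, with 1 point for each control pool. Hepatocyte miRNAs lie at 51.3% to 60.1%. The hepatocyte, fish and stromal lists have their highest point in pool c, and all other lists in pool a.

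Families known for other roles were also read. miR-462 and miR-731, neighbours known from fish immunity, gave 1279, 2246 and 2682 CPM and 289, 373 and 726 CPM in pools a, b and c. Together they held 0.243% ± 0.0342 of the counts (SD, n = 3). miR-221 and miR-222 held 0.289% ± 0.0260, miR-23, miR-24 and miR-27 held 0.659% ± 0.0699, and miR-15 and miR-16 held 0.455% ± 0.0834, or 0.701% with every row of the table counted. miR-210 held 0.0194% ± 0.00231, or 163, 196 and 228 CPM in pools a, b and c.

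Sequences without a known name, predicted by the authors and labelled PC, numbered 85 and held 0.0453%, 0.0489% and 0.0466% of the counts in pools a, b and c. Of these, 68 had counts in all 3 pools. The most abundant, PC-5p-482_5789, was counted 1046, 2083 and 1319 times and held 0.0270% ± 0.00336 of the counts. PC-3p-2180_946 was counted 318, 589 and 529 times. PC-5p-1932_1060, PC-5p-36494_60 and PC-5p-115727_5 followed at mean shares of 0.00159%, 0.00107% and 0.000365%.
PC-5p-482_5789: aGGAAAGAgtggacaatagca
PC-3p-2180_946: cCCGAACTccacccatctttgg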

How the data were processed

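Small RNA libraries were made from total liver RNA (Trizol) with a TruSeq small RNA kit, per the labels' protocols. The submitters' processing notes name Bowtie, and other steps and the genome build are not given in the sources used here. The deposited values are expected counts per mature sequence. They are raw and hold fractions, and the rule for reads that match more than 1 sequence is not given in the sources used here. The 613 entries with values, repeats included, were reduced to 1 per sequence (545), and 1 further entry is not analysed here. Seed families share bases 2 to 8. An unlabelled sequence was taken as a given arm if it shared a seed or at least 12 bases with it, and otherwise as the opposite arm. Genome positions of the hairpins were not used here.

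Shares are percent of a pool's counts. CPM used edgeR 4.0.16 TMM factors, except for the limits of 3 counts and the cut of 1000 CPM for hairpins, which used raw totals. Arm ratios were fitted in limma 3.58.1 (intercept only, eBayes with trend and robust, pseudocount 1). The fit was run on simulated data with the same spread between pools for every hairpin. That run did not cover unequal spreads or ratios as large as the largest here. Counts were rounded to whole numbers for the edgeR quasi-likelihood and DESeq2 1.42.0 alternatives. R 4.3.3, Python 3.11.15, pandas 2.3.3, scipy 1.17.1 and matplotlib 3.10.9 were used.

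Sequences were named by rule: the 20 largest shares, the 10 largest families, the 12 hairpins with the most counts and the 5 with ratios nearest 1 above 1000 CPM, the 15 largest and 8 smallest CVs above 100 CPM, the defining cell type markers, and the 5 most abundant predicted sequences. Cluster neighbours, hairpins with the widest range of ratios, other members of the lists and sequences ending in CCA were chosen after their values were seen. Members and lists were chosen with earlier results of these data known. P-values and SEs of the arm ratios rest on the spread between pools of 5 livers, moderated by a variance shared over the tested hairpins. A small p therefore does not rest on the 3 pools of that hairpin alone. For let-7b the SD of the log2 ratio over pools was 0.04 and the moderated SE 0.33.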

Additional observations from a re-analysis of the deposited data

How the results depend on the processing

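Of 911 values set against their alternatives, 838 stayed within the spread and on the same side of the threshold. The setting that counted identical values separately left every entry as it was, so its values could not differ. Shares, CVs and counts cannot be negative, so only arm ratios could change sign, and none did. Counting every row of the table, so that a sequence with several names counts again for each, gave 80.0% for the 10 leading sequences. The hepatocyte list was then at 51.2%. This setting moved the let-7 family to 9.35%, the miR-26a-5p family to 6.70%, the list of miR-19, miR-25, miR-92 and miR-363 to 2.45%, against 1.43%, the miR-15 and miR-16 list to 0.701% and the let-7 list to 9.38%, against 5.99%. The number of sequences with a CV over 50% was 16 of 104 in the main setting, and 29 of nearly as many by raw totals. It was 33 of 171 from 10 CPM and 4 of 45 from 1000 CPM. These 2 counts therefore also reflect how many sequences were included. When 1 pool was left out the number was 8 to 26, with each CV taken over 2 pools. Of the 15 sequences with the largest CV, 10 remained by raw totals, 14 by DESeq2 size factors, 8 without pool a, 13 without pool b and 7 without pool c. With the cut at 10 CPM 7 remained, and at 1000 CPM, where less abundant sequences drop out, 4 did. Hairpins called for 5p and 3p numbered 32 and 32 against a 2-fold ratio, 35 and 32 by edgeR, 30 and 23 of 59 with labelled arms only, and 39 and 36 of 78 matched by number, the last 2 settings chosen after seeing the data. Counting sequences with identical values once, also chosen after seeing the data, gave 34 and 29 of 68. They numbered 33 to 34 and 32 to 33 when 1 pool was left out. No paired analysis was possible because no groups were compared: the letters could pair control with hypoxia libraries, and the hypoxia libraries were not used. Depth limits minor arms below 3 counts, and 3 pools limit every SD.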
